A study of Mus musculus with 12 samples.

Results

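Tumours treated with a nanobody construct that carries both an OD arm and a PD-1 arm (VHH-OD-PD-1-Fc) were compared with tumours treated with the construct that carries only the OD arm (VHH-OD-Fc). The comparison shows what the added PD-1 arm goes with when the OD arm is present in both groups. Each group had 3 bulk RNA-seq libraries, and the comparison covered every gene with a deposited value of at least 1 FPKM (fragments per kilobase of transcript, scaled to the depth of the library) in at least 3 of these 6 libraries. That rule kept 13236 of the 41009 gene symbols in the table. Of these, 11395 reached 1 FPKM in all 6 libraries. Just inside the threshold lay 925 genes with exactly 3 libraries at 1 FPKM or more and a median mean level of 1.09 FPKM, and just outside it lay 808 genes with 2 such libraries and 0.815 FPKM. Some genes passed through one group alone, 283 of them through VHH-OD-PD-1-Fc and 467 through VHH-OD-Fc. For these genes the filter itself favours higher values in that group.

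All tumours grew from mCherry-labelled 4T1 cells, a mammary carcinoma line of BALB/c mice, placed in mammary fat pads, the hosts being BALB/c females of 4 to 5 weeks. From day 7 the mice received VHH-OD-PD-1-Fc at 4.3 mg/kg, VHH-OD-Fc at 3.5 mg/kg, VHH-PD-1-Fc at 2.6 mg/kg or Ctrl-Fc (Ctrl) at 5 mg/kg, by intraperitoneal injection. The control mice thus also received an Fc protein, and the hosts were immunocompetent and carried tumour cells of one line that make a foreign fluorescent protein. Total RNA of the tumours was enriched for poly(A) RNA and read as pairs of 150 bp. By its title the series concerns nanobodies to digoxin-like substances of the body itself; what OD stands for is nowhere written out. The series design text describes a different tumour and digoxin, so the groups were taken from the sample labels. Whether each library came from its own animal is not stated, and the p-values therefore measure a spread between libraries that could be technical. No batch is given, so any batch that went with the constructs cannot be told apart from the PD-1 arm.

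A VHH, or nanobody, is the antigen-binding domain of the heavy-chain antibodies of camels and llamas, and the Fc is the constant tail of an antibody, which prolongs its life in blood and is bound by receptors on myeloid cells. PD-1, encoded by Pdcd1, is an inhibitory receptor on activated T cells. Its ligand PD-L1, encoded by Cd274, is induced by interferon gamma on tumour and myeloid cells, so blocking antibodies against the pair can restore T cell activity in some tumours. Interferons in turn act through receptors, JAK kinases and STAT and IRF factors on a shared set of antiviral and antigen presentation genes. 4T1 tumours are known for a large neutrophil and macrophage infiltrate and for a poor response to PD-1 blockade.

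The libraries of the 2 groups had similar estimated depths, with 48.6 to 50.7 M reads in VHH-OD-PD-1-Fc and 47.0 to 61.0 M reads in VHH-OD-Fc. They differed in make-up. The number of genes listed above 0 was 30348 to 31676 in VHH-OD-PD-1-Fc and 24924 to 26107 in VHH-OD-Fc, and the sum of FPKM was 392283 to 394139 in VHH-OD-PD-1-Fc and 327792 to 345596 in VHH-OD-Fc. Libraries of VHH-OD-PD-1-Fc were also far more alike than those of the other groups. Their median SD on the log2 scale was 0.0711, against 0.12 in VHH-OD-Fc, 0.243 in VHH-PD-1-Fc and 0.136 in Ctrl. Above 300 fragments, they differed from each other by 3.57 to 4.73 times counting noise (median chi-square), against 14.4 to 28.0 times in VHH-OD-Fc. They were therefore not one library deposited again, but the spread among them may not include that between animals, and the counts of the larger comparisons are also given after these 3 libraries were averaged into 1 sample ("as 1 sample" below), which is assumed to vary like those of the other groups.

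Differences were tested with limma on log2(FPKM + 1) in 1 fit of all 12 libraries, with a call at 0.05 after Benjamini-Hochberg adjustment. VHH-OD-PD-1-Fc tumours differed from VHH-OD-Fc tumours in 5446 genes (41.1% of those tested), of which 2060 were higher (15.6%) and 3386 lower (25.6%). The libraries of the groups did not overlap for 8840 genes (66.8%), among them 5430 of the called genes. Most changes were moderate, since 408 called genes rose and 518 fell by at least 1 on the log2 scale, that is, by a factor of at least 2. As 1 sample, limma called 1240 (9.37%), of which 527 were higher (3.98%) and 713 lower (5.39%). All 1240 were also among the 5446. The median of all tested genes was -0.11 on the log2 scale, and this baseline depends on the scaling. Of the called genes 37.8% were higher on the FPKM scale, against 18.3% after rescaling to TPM, where the median was -0.34, and 51.3% after scaling by median of ratios, where it was -0.01. The share was 50.8% after quantile normalization, 52.6% with trends in transcript length and GC content removed and 56.1% without the filter on low values. The called genes named by the naming rule kept their direction under each of these settings in which they were tested. Some list medians changed sign. Those whose median and shift both exceeded its SD between libraries are given at the end.

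Apart from pseudogenes and unnamed gene models, the gene with the largest rise was Cldn6, a claudin of tight junctions that is normally restricted to embryonic tissue and some tumours. It stood at 42.1, 43.8 and 44.7 FPKM in VHH-OD-PD-1-Fc libraries, against 0.334, 1.24 and 1.6 FPKM in VHH-OD-Fc libraries. All libraries with both arms lay far above all the others, with a log2 fold change of 4.49 (SE 0.36, limma adjusted p = 3.5e-05, and 0.0092 with both-arm libraries as 1 sample). Cldn9, which lies 138 bases from Cldn6, did not pass the test (0.62, adjusted p = 0.32). Tnfrsf12a, 1781 bases from Cldn6 on its other side, was called higher (0.38, adjusted p = 0.032). Kif21b, a kinesin motor protein, stood at 7.99, 8.53 and 8.56 FPKM in VHH-OD-PD-1-Fc, against 1.91, 1.69 and 1.64 FPKM in VHH-OD-Fc. Nppb, the precursor of the natriuretic peptide BNP, stood at 20.7, 19.6 and 17.2 FPKM in VHH-OD-PD-1-Fc, against 2.83, 5.53 and 5.7 FPKM in VHH-OD-Fc (log2 1.87, SE 0.65, adjusted p = 0.04). The placental hormone gene Prl2c3 also rose by 1.81, with 7.48, 5.59 and 3.65 FPKM in VHH-OD-PD-1-Fc and 0.5, 0.883 and 1.13 FPKM in VHH-OD-Fc. It belongs to a family of near-identical genes that can share reads, so its level is uncertain. Of the 10 largest named rises, 6 were microRNA gene annotations (Mir3092, Mir7675, Mir7678, Mir703, Mir1195 and Mir763). In poly(A) libraries such entries count fragments over a short stretch of genome and are no measure of the mature microRNA. Among rises of this size, 53 more belonged to pseudogenes or unnamed gene models.

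By the same rule, the gene with the largest fall was Ighg1, the constant region of an antibody heavy chain and a product of plasma cells. It stood at 0.175, 0.209 and 0.0153 FPKM in VHH-OD-PD-1-Fc, against 14.7, 75.4 and 2.77 FPKM in VHH-OD-Fc, so the libraries of VHH-OD-Fc spread widely (log2 -3.87, SE 1.26, adjusted p = 0.03, and 0.23 as 1 sample). The chemokine Cxcl13, which draws B cells into follicles, was at 0.645, 0.453 and 0.928 FPKM in VHH-OD-PD-1-Fc and at 7.3, 23.4 and 2.31 FPKM in VHH-OD-Fc. More even was the fall of the zinc finger gene Zfp146, with 2.14, 2.18 and 1.92 FPKM in VHH-OD-PD-1-Fc against 15.4, 14.5 and 16.3 FPKM in VHH-OD-Fc. Its log2 fold change was -2.41 (SE 0.12, adjusted p = 2.4e-06, and 0.0017 as 1 sample). Ifi211, of an interferon-inducible family that includes DNA sensors, was at 2.47, 1.94 and 1.53 FPKM in VHH-OD-PD-1-Fc, against 16.2, 12.3 and 13.3 FPKM in VHH-OD-Fc. Its fall of 2.33 on the log2 scale (SE 0.16, adjusted p = 1.7e-05) also held as 1 sample (0.003). Mir186 and Snord98, short annotations inside other genes, were listed at 0 in all VHH-OD-PD-1-Fc libraries and at 2.29 to 8.32 FPKM in VHH-OD-Fc libraries. Ighg1, Cxcl13, Mir186 and Snord98 passed the filter through the VHH-OD-Fc libraries alone.

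**Figure D1:**
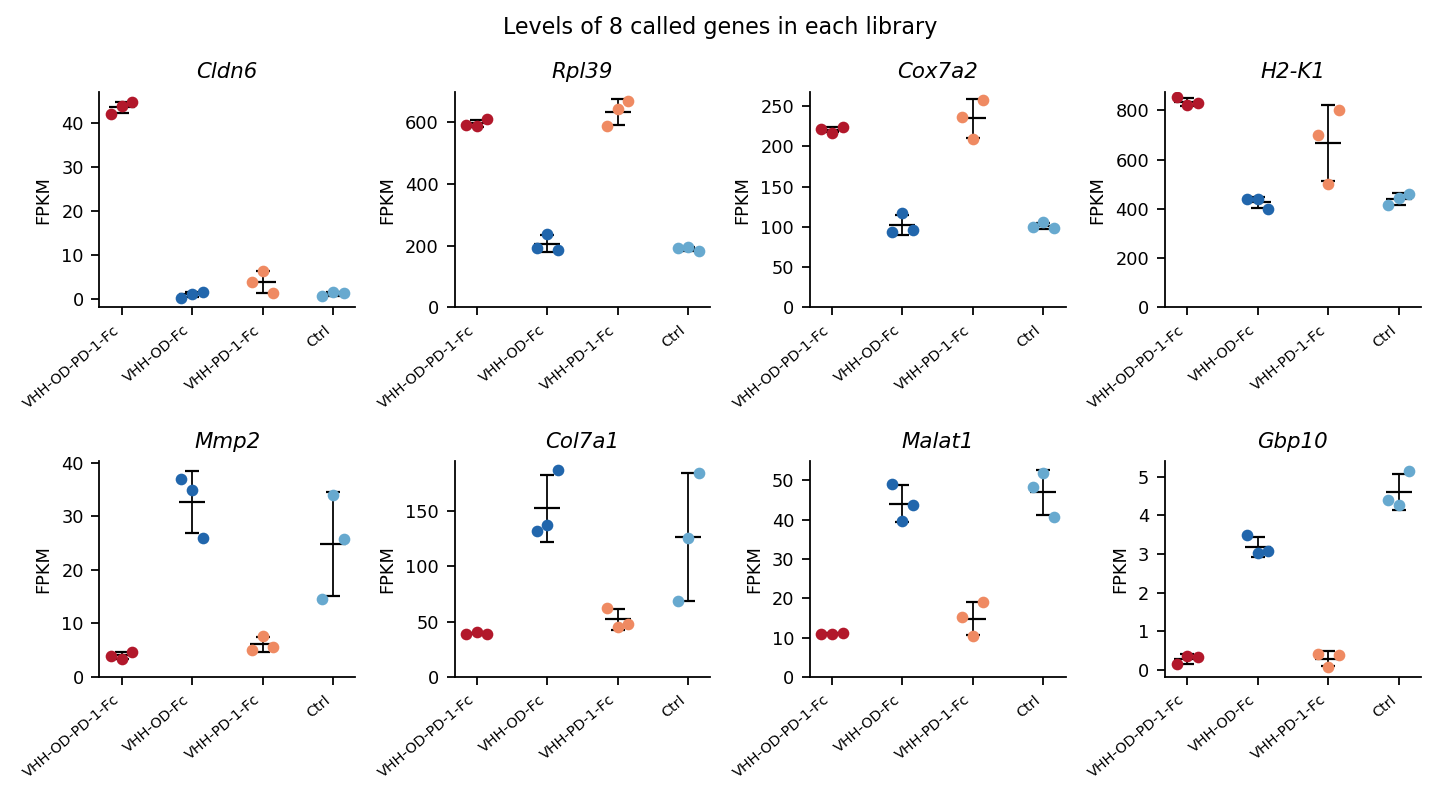
Level in FPKM (linear axis from 0) of 8 genes called between VHH-OD-PD-1-Fc and VHH-OD-Fc, with each library as a dot, the mean as a bar and the SD as error bars (n = 3). In each panel the VHH-OD-PD-1-Fc libraries lie clear of the VHH-OD-Fc libraries, above them in the top row (Cldn6, Rpl39, Cox7a2, H2-K1) and below them in the bottom row (Mmp2, Col7a1, Malat1, Gbp10). Gbp10 passed the filter through the VHH-OD-Fc libraries alone.

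Genes of protein synthesis and of respiration were higher in VHH-OD-PD-1-Fc tumours. Of 78 cytosolic ribosomal protein genes, 61 rose and 0 fell, with a list median of 0.65, and 28 rose as 1 sample. Their share of all FPKM was 13.6% to 14.0% in VHH-OD-PD-1-Fc and 9.75% to 10.9% in VHH-OD-Fc. Rpl39, a small protein of the large subunit, stood at 589, 588 and 608 FPKM in VHH-OD-PD-1-Fc against 193, 238 and 187 FPKM in VHH-OD-Fc (log2 1.54, SE 0.10, adjusted p = 1.5e-05). Rps20, of the small subunit, stood at 394, 389 and 389 FPKM in VHH-OD-PD-1-Fc, against 169, 170 and 141 FPKM in VHH-OD-Fc. The list was higher under each scaling, but the median was 0.22 after quantile normalization, where 35 members rose and 1 fell. Ribosomal protein genes have many near-identical pseudogenes, and how such reads were counted is not given in the sources used here. Annotated pseudogenes were themselves called higher in 350 of 826 cases and lower in 131.

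Of 73 nuclear-encoded subunits of the respiratory chain, 49 rose and 3 fell, with a median of 0.43 (15 and 0 as 1 sample). Cox7a2, a subunit of cytochrome c oxidase, stood at 221, 217 and 224 FPKM in VHH-OD-PD-1-Fc, against 93.3, 117 and 96.6 FPKM in VHH-OD-Fc, a log2 fold change of 1.11. Atp5po, a stalk subunit of ATP synthase, stood at 28.3, 27.8 and 27.7 FPKM in VHH-OD-PD-1-Fc, against 13.8, 14.3 and 11.4 FPKM in VHH-OD-Fc. Uqcrq, a subunit of complex III, rose by 0.94. Of 44 mitochondrial ribosomal proteins 25 rose and 1 fell, with a median of 0.34 (6 and 0 as 1 sample, and 12 and 8 with a median of 0.12 on the TPM scale). Of the 13 protein-coding genes of the mitochondrial genome, 6 rose and 1 fell (1 and 0 as 1 sample, 3 and 2 on the TPM scale, and 1 and 1 after quantile normalization). mt-Nd4, a subunit of complex I, stood at 1708, 1719 and 1756 FPKM in VHH-OD-PD-1-Fc, against 981, 956 and 1008 FPKM in VHH-OD-Fc.

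Some other gene lists moved the same way in part, and their counts stand beside 15.6% higher and 25.6% lower among all genes. Of 9 replication-dependent histone genes 5 rose and 0 fell, with a median of 0.80 (1 and 0 as 1 sample). The libraries were enriched for poly(A) RNA, so these values are no measure of histone transcripts without a poly(A) tail. The list was not covered in the setting with length and GC trends removed. H1f5, a linker histone, was at 7.35, 8.27 and 8.7 FPKM in VHH-OD-PD-1-Fc, against 3.26, 2.35 and 1.79 FPKM in VHH-OD-Fc. Of 26 antioxidant and NRF2 target genes 8 rose and 2 fell, with a median of 0.15 that turned to -0.06 on the TPM scale. Gpx1, a selenium-dependent peroxidase, stood at 38.7, 41.0 and 37.2 FPKM in VHH-OD-PD-1-Fc, against 15, 18.4 and 13.4 FPKM in VHH-OD-Fc. Prdx2, a peroxiredoxin, and Ftl1, the ferritin light chain, rose by 0.79 and 0.63. Of 31 constitutive proteasome subunits, 7 rose, Psmb3 by 0.72 among them, and 2 fell. On the TPM scale 3 of these subunits rose and 7 fell, and their median of 0.111 turned to -0.115. Of 23 translation factors 7 rose and 4 fell, with a median of 0.106 that turned to -0.124 on the TPM scale. Eif5a stood at 500, 516 and 495 FPKM in VHH-OD-PD-1-Fc against 299, 296 and 312 FPKM in VHH-OD-Fc.

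Fold change went with transcript length across genes. Among the fifth of genes with the shortest annotated transcripts, up to 692 bases, 29.6% were higher and 17.6% lower and the median was 0.10. Among the fifth above 2504 bases, 3.5% were higher and 39.9% lower and the median was -0.31. Spearman's rho of length with fold change was -0.273 over 12621 genes, which share libraries and are not independent replicates. With length and GC trends removed, 59 of the cytosolic ribosomal protein genes rose and 1 fell, and 36 of the 59 respiratory chain genes with a length rose and 4 fell. Several falls described below were fewer in that setting. They numbered 8 rather than 16 for fibroblasts and matrix (median -0.55), 10 rather than 14 for collagens, 7 rather than 11 for metalloproteinases and TIMPs, and 6 rather than 10 for endothelium. For splicing and RNA processing the median was -0.24. The part of RNA fragment size or library preparation in these differences was not tested.

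Matrix and stromal genes were lower in VHH-OD-PD-1-Fc tumours. Of 19 collagen chains, 0 rose and 14 fell, with a median of -0.84 (0 and 5 as 1 sample, and 8 to 13 lower with 1 of the 6 libraries left out). Col7a1, the anchoring fibril collagen of basement membranes, stood at 38.7, 40.2 and 39.2 FPKM in VHH-OD-PD-1-Fc, against 132, 137 and 187 FPKM in VHH-OD-Fc (log2 -1.90, SE 0.28, adjusted p = 0.00059). Col12a1, a collagen that decorates fibrils, stood at 11.5, 11.9 and 11.8 FPKM in VHH-OD-PD-1-Fc, against 37.3, 28.2 and 35.3 FPKM in VHH-OD-Fc. Col4a1, a basement membrane chain, stood at 47.3, 46.5 and 46.0 FPKM in VHH-OD-PD-1-Fc and at 97.3, 95.2 and 104 FPKM in VHH-OD-Fc. The groups did not overlap for any of these chains, as for 5430 of the 5446 called genes.

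Enzymes that remodel the matrix fell as well, in 11 of 18 metalloproteinase and TIMP genes, while 0 rose (median -0.60, 2 lower as 1 sample, and 6 to 11 with 1 library left out). Mmp2, a gelatinase made mainly by fibroblasts, had 4.02, 3.42 and 4.75 FPKM in VHH-OD-PD-1-Fc libraries, against 37.0, 34.9 and 26.0 FPKM in VHH-OD-Fc libraries. Its log2 fold change of -2.73 (SE 0.26, adjusted p = 6.7e-05, and 0.012 as 1 sample) was the steepest in the list. The inhibitor Timp3 stood at 0.2, 0.194 and 0.376 FPKM in VHH-OD-PD-1-Fc, against 2.14, 2.32 and 2.56 FPKM in VHH-OD-Fc. Timp3 passed the filter through the VHH-OD-Fc libraries alone. Adamts1, a protease of proteoglycans, fell by 1.60. In the fibroblast and matrix list 16 of 25 genes fell and 1 rose (median -0.85, 5 lower as 1 sample, and 6 to 9 with 1 library left out). Thbs1, a matrix glycoprotein that restrains vessel growth, stood at 18.9, 20.1 and 18.6 FPKM in VHH-OD-PD-1-Fc, against 61.3, 48.9 and 55.1 FPKM in VHH-OD-Fc. Fn1, fibronectin, stood at 240, 244 and 240 FPKM in VHH-OD-PD-1-Fc, against 693, 452 and 459 FPKM in VHH-OD-Fc. In bulk RNA, fewer cells of a type and less RNA per cell cannot be told apart.

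Vessel markers were lower too. Of 15 endothelial genes, 10 fell and 0 rose, with a median of -0.63 (4 lower as 1 sample). Cdh5, the cadherin of endothelial junctions, stood at 6.61, 6.27 and 4.77 FPKM in VHH-OD-PD-1-Fc and at 11.6, 13.7 and 13 FPKM in VHH-OD-Fc. Pecam1 and the VEGF receptor gene Kdr fell by 0.90 and 0.67. Of 10 genes of pericytes and smooth muscle 6 fell and 0 rose, Rgs5 by 1.56 among them. The angiogenic factor Vegfa was at 24.6, 24.8 and 26.6 FPKM in VHH-OD-PD-1-Fc and at 65.3, 60.3 and 63.6 FPKM in VHH-OD-Fc (log2 -1.28, SE 0.44, adjusted p = 0.036, and 0.25 as 1 sample).

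The fat, muscle and blood content of the libraries was uneven. Of 11 adipocyte genes 9 fell and 0 rose, with a median of -1.64, but limma called 5 without VHH-OD-Fc replicate 2 and 0 as 1 sample (5 at an unadjusted p under 0.05). The lipid droplet gene Cidec stood at 1.21, 0.906 and 1.32 FPKM in VHH-OD-PD-1-Fc, against 5.27, 19.2 and 9.97 FPKM in VHH-OD-Fc. The complement protease gene Cfd, or adipsin, stood at 13, 13.7 and 16.4 FPKM in VHH-OD-PD-1-Fc, against 55.4, 209 and 122 FPKM in VHH-OD-Fc. VHH-OD-Fc replicate 2 was the highest library for both. Of 12 skeletal muscle genes limma called 0, with 0 at an unadjusted p under 0.05, and their summed markers ranged from 172 to 174 FPKM in VHH-OD-PD-1-Fc and from 12.7 to 1990 FPKM in VHH-OD-Fc. The list had a median of -0.51, which was 0.64 without VHH-OD-Fc replicate 2. Summed erythroid markers were 213 to 217 FPKM in VHH-OD-PD-1-Fc and 145 to 769 FPKM in VHH-OD-Fc. The part of fat, muscle or blood in other results was not tested.

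**Figure D2:**
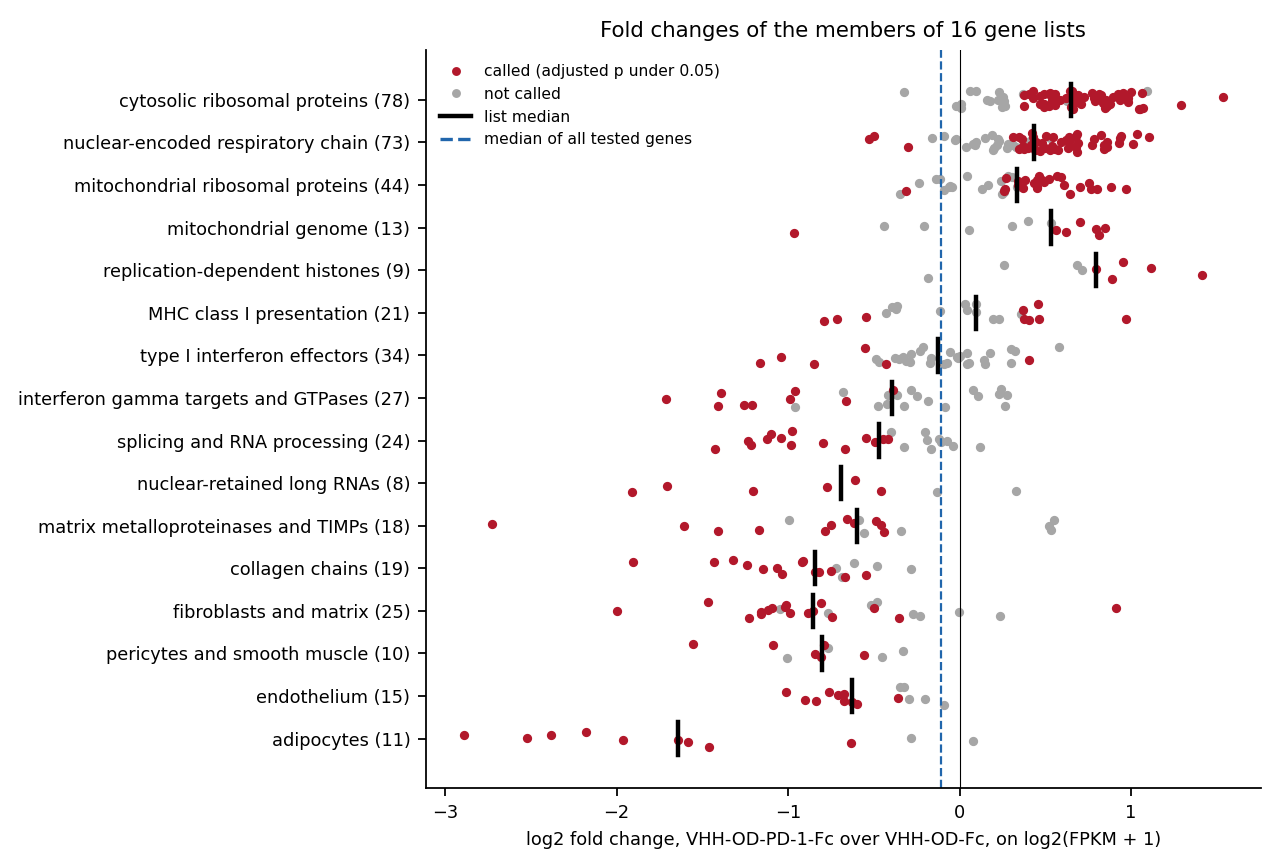
Log2 fold change (VHH-OD-PD-1-Fc over VHH-OD-Fc, on log2(FPKM + 1)) of each tested member of 16 gene lists, with called genes in red, the others in grey, a black bar at the list median and a dashed line at the median of all tested genes, -0.11. The ribosomal, respiratory and histone lists lie mostly to the right of that line and the matrix and vessel lists to its left.

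Marker sums of other cell types went in both directions. The 8 markers of 4T1 epithelium (keratins, Epcam, Cdh1 and Cldn7) summed to 2580 to 2640 FPKM in VHH-OD-PD-1-Fc and 2280 to 2430 FPKM in VHH-OD-Fc, and all 8 were measured, as the label of a carcinoma requires. Of these 8 markers 1 was called higher and 0 lower. Of 22 genes of epithelial identity 2 rose and 0 fell, beside 15.6% higher and 25.6% lower among all genes. The list median was -0.10, with 9 fold changes above 0 and 13 below. Without number 2 of VHH-OD-Fc, number 2 of VHH-PD-1-Fc and number 1 of Ctrl, 2 rose and 5 fell. Wfdc2, a secreted protease inhibitor of epithelia, stood at 1500, 1441 and 1477 FPKM in VHH-OD-PD-1-Fc and at 866, 1025 and 786 FPKM in VHH-OD-Fc. Markers of fibroblasts summed to 535 to 539 FPKM in VHH-OD-PD-1-Fc and 664 to 1080 FPKM in VHH-OD-Fc. Those of endothelium summed to 10.3 to 12.4 FPKM in VHH-OD-PD-1-Fc and 21.8 to 30.1 FPKM in VHH-OD-Fc. Plasma cell markers summed to 153 to 158 FPKM in VHH-OD-PD-1-Fc and 243 to 1430 FPKM in VHH-OD-Fc. B cell markers summed to 0.418 to 0.904 FPKM in VHH-OD-PD-1-Fc and 1.61 to 10.9 FPKM in VHH-OD-Fc. Neither sum overlapped, but the groups also did not overlap for 66.8% of all tested genes. Of 5 plasma cell markers 3 were tested and 0 called, and of 5 B cell markers 0 were tested. Macrophage markers summed to 1300 to 1320 FPKM in VHH-OD-PD-1-Fc and 740 to 987 FPKM in VHH-OD-Fc. Of these 7 macrophage markers 0 were called higher and 1 lower.

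**Figure D3:**
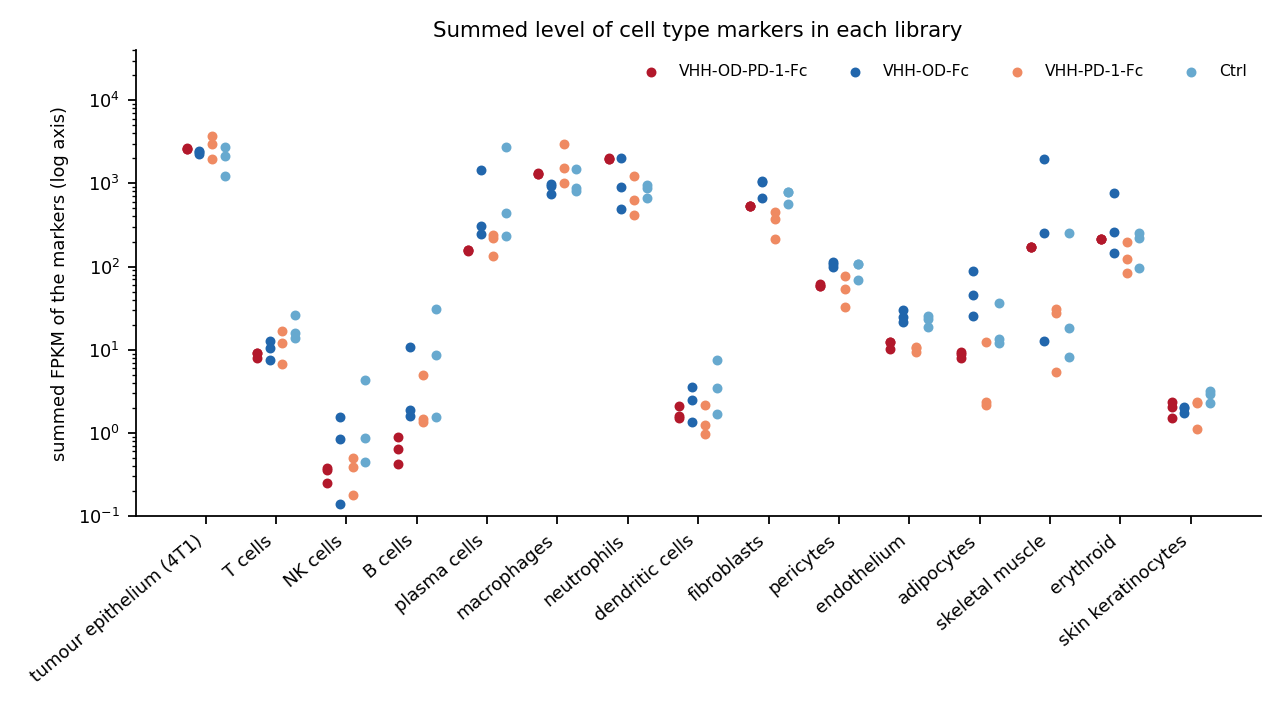
Summed FPKM (log axis) of cell type markers in each library, 1 dot a library, with VHH-OD-PD-1-Fc in dark red, VHH-OD-Fc in dark blue, VHH-PD-1-Fc in orange and Ctrl in light blue. Fibroblast, pericyte, endothelial, adipocyte, plasma cell and B cell sums of the VHH-OD-PD-1-Fc libraries lie below those of all VHH-OD-Fc libraries, and the VHH-OD-Fc libraries spread widely for neutrophils, plasma cells, B cells and muscle. Of the plasma cell markers 0 were called, and of the B cell markers 0 were tested.

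The receptor that the added arm is named for did not differ detectably. Pdcd1 was at 2.61, 1.91 and 1.94 FPKM in VHH-OD-PD-1-Fc and at 3.15, 2.05 and 1.83 FPKM in VHH-OD-Fc (log2 -0.07, SE 0.21, adjusted p = 0.80). Its ligand Cd274 stood at 6.02, 6.29 and 6.73 FPKM in VHH-OD-PD-1-Fc, against 12.8, 12.4 and 11.3 FPKM in VHH-OD-Fc, without overlap. That difference of -0.84 missed the threshold (SE 0.33, adjusted p = 0.06). Of 5 measured genes in the list of PD-1, its ligands and the CD28 family, 1 was called (0 as 1 sample). It was Tnfrsf14, a receptor of another family that the list includes, with a fall of 1.11. Of 12 other inhibitory receptors and ligands 3 fell and 0 rose (0 lower as 1 sample), beside 25.6% lower among all genes. Nt5e, or CD73, which makes adenosine, stood at 19.7, 19.8 and 19.8 FPKM in VHH-OD-PD-1-Fc against 57.2, 41.2 and 72.6 FPKM in VHH-OD-Fc.

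T cell genes were low in both groups, and the counts of calls below stand beside 15.6% higher and 25.6% lower among all genes. Summed T cell markers were 7.97 to 9.25 FPKM in VHH-OD-PD-1-Fc and 7.43 to 12.7 FPKM in VHH-OD-Fc. Of 10 genes of the T cell receptor and its signalling, 1 was called. It was Trac, the alpha chain constant region, at 1.59, 2.27 and 1.73 FPKM in VHH-OD-PD-1-Fc and 4.05, 3.31 and 2.69 FPKM in VHH-OD-Fc (log2 -0.60, adjusted p = 0.038). The call was lost as 1 sample and in 4 of 6 fits with 1 library left out. Cd8a stood at 2.38, 2.66 and 1.86 FPKM in VHH-OD-PD-1-Fc and 3.39, 2.03 and 1.76 FPKM in VHH-OD-Fc, and the groups overlapped (log2 -0.02, SE 0.31, adjusted p = 0.97). Among 10 genes of cytotoxic lymphocytes 1 was called, Ccl5, a chemokine of activated T cells, with a rise of 0.68 that was not called as 1 sample or in 5 of 6 fits with 1 library left out. The granule protease Gzmb stood at 8.46, 6.44 and 8.08 FPKM in VHH-OD-PD-1-Fc, above 5.92, 5.73 and 3.27 FPKM in VHH-OD-Fc, but did not pass the test (log2 0.56, SE 0.40, adjusted p = 0.29). The pore-forming Prf1 was at 2.07, 1.84 and 2.67 FPKM in VHH-OD-PD-1-Fc and 1.84, 2.87 and 1.14 FPKM in VHH-OD-Fc (adjusted p = 0.69). Ifng and the regulatory T cell factor Foxp3 stayed below the filter, at 0.604, 0.881 and 1.01 FPKM for Ifng in VHH-OD-PD-1-Fc and 0.657, 0.598 and 0.507 FPKM in VHH-OD-Fc. Of the B cell markers, 0 reached the filter.

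Antigen presentation by MHC class I moved in both directions, with 6 of 21 genes higher and 3 lower (1 and 0 as 1 sample, and 3 to 6 higher and 1 to 2 lower with 1 library left out). H2-K1, a classical class I heavy chain, stood at 853, 823 and 829 FPKM in VHH-OD-PD-1-Fc, against 439, 440 and 400 FPKM in VHH-OD-Fc (log2 0.97, SE 0.15, adjusted p = 0.00062). Tapbp, or tapasin, and the immunoproteasome regulator Psme1 rose by 0.41 and 0.46. The 3 that fell, named after their values were seen, were the peptide transporter Tap2 by 0.55, the trimming enzyme Erap1 by 0.72 and the peptide editor Tapbpl by 0.79. The list median of 0.09 turned to -0.13 on the TPM scale and -0.15 after quantile normalization. In each of these settings 1 of the 21 genes rose and 6 fell. Among all genes 15.6% were higher and 25.6% lower on the FPKM scale. H2 genes of the class I family are similar in sequence, and how shared reads were divided is not given in the sources used here. Of 10 genes of MHC class II presentation 1 rose, the chain gene H2-Aa, by 0.55. It was not called as 1 sample, on the TPM scale, after quantile normalization or in 5 of 6 fits with 1 library left out.

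Among all genes 15.6% were higher and 25.6% lower, and the counts of the interferon lists stand beside these shares. Of 34 type I interferon effectors 1 rose (Oas1a, by 0.40) and 5 fell, with a median of -0.13, beside -0.11 for all genes (0 and 2 as 1 sample). Trim30a, an inducible regulator of innate signalling, stood at 5.98, 6.64 and 5.87 FPKM in VHH-OD-PD-1-Fc, against 15.1, 15.3 and 14.8 FPKM in VHH-OD-Fc (log2 -1.16, SE 0.17, adjusted p = 0.0006). Samd9l, a growth-restricting antiviral factor, fell by 1.04. Of 27 interferon gamma targets 9 fell and 0 rose, with a median of -0.39 (3 lower as 1 sample). Without 3 libraries that stand apart from their groups (number 2 of VHH-OD-Fc, number 2 of VHH-PD-1-Fc and number 1 of Ctrl), 1 rose and 16 fell, and with length and GC trends removed 2 rose and 7 fell, with a median of -0.13. Gbp10, a guanylate-binding GTPase, stood at 0.144, 0.367 and 0.332 FPKM in VHH-OD-PD-1-Fc, against 3.49, 3.02 and 3.07 FPKM in VHH-OD-Fc (log2 -1.71, SE 0.14, adjusted p = 3.5e-05). Gbp10 passed the filter through the VHH-OD-Fc libraries alone. Gbp9, of the same family, which acts against intracellular pathogens, stood at 6.3, 7.06 and 6.35 FPKM in VHH-OD-PD-1-Fc, against 19.2, 16.3 and 16 FPKM in VHH-OD-Fc. Gbp5 fell by 1.41. The Gbp genes are close paralogs, so the division of reads among them is uncertain. Of 20 STAT, IRF, JAK and SOCS genes 4 fell and 0 rose (0 as 1 sample, and 1 to 2 lower with 1 library left out), and Jak2 stood at 24.0, 21.2 and 24.2 FPKM in VHH-OD-PD-1-Fc and 42.2, 41.5 and 45.2 FPKM in VHH-OD-Fc.

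The counts in this paragraph stand beside 15.6% higher and 25.6% lower among all genes. Among chemokines that attract T cells 2 of 12 genes rose and 3 fell, close to those shares (0 in either direction as 1 sample). Cxcr4, a receptor of Cxcl12, stood at 4.15, 4.17 and 3.69 FPKM in VHH-OD-PD-1-Fc, against 10.3, 9.03 and 10.3 FPKM in VHH-OD-Fc. Cxcl12 itself, a stromal chemokine, stood at 0.708, 0.541 and 0.626 FPKM in VHH-OD-PD-1-Fc and 2.33, 5.73 and 1.74 FPKM in VHH-OD-Fc. Both passed the test, with falls of 1.12 and 1.28. Cxcl12 passed the filter through the VHH-OD-Fc libraries alone. Neutrophil granule genes had a median of 0.54 with 2 of 19 higher and 2 lower (0 in either direction as 1 sample), and the VHH-OD-Fc libraries spread widely, since their summed neutrophil markers were 487 to 2020 FPKM, against 1940 to 2000 FPKM in VHH-OD-PD-1-Fc. Without VHH-OD-Fc replicate 2, 9 rose and 1 fell, and without VHH-OD-Fc replicate 1, 1 rose and 0 fell and the median was 0.14. Retnlg, a secreted neutrophil protein, stood at 194, 194 and 181 FPKM in VHH-OD-PD-1-Fc, against 29.0, 108 and 63.1 FPKM in VHH-OD-Fc (log2 1.68, SE 0.45, adjusted p = 0.013). Csf3, or G-CSF, the cytokine that drives neutrophil production, stood at 318, 297 and 299 FPKM in VHH-OD-PD-1-Fc, against 52.3, 130 and 178 FPKM in VHH-OD-Fc. Its rise of 1.51 (SE 0.53, adjusted p = 0.041) was not called as 1 sample (0.26). Of 16 macrophage and complement C1q genes 2 fell and 0 rose, both below the shares among all genes, with a median of 0.12. One of the 2, Adgre1, or F4/80, stood at 3.29, 4.07 and 3.97 FPKM in VHH-OD-PD-1-Fc and 9.55, 9.01 and 7.2 FPKM in VHH-OD-Fc.

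Of 30 genes of G2 and M phase 3 rose and 6 fell (0 and 3 as 1 sample), both at lower shares than among all genes and with a median of -0.12 that turned to 0.03 with length and GC trends removed, and of 29 genes of S phase and nucleotide synthesis 8 rose and 1 fell (0 and 1 as 1 sample, and 4 to 6 higher with 1 library left out). Kif20a, a kinesin of cytokinesis, stood at 3.59, 3.32 and 3.86 FPKM in VHH-OD-PD-1-Fc, against 11.9, 11.4 and 9.58 FPKM in VHH-OD-Fc (log2 -1.38, SE 0.14, adjusted p = 8.1e-05). Prc1, which bundles the midzone of the spindle, fell by 1.38 as well. The proliferation marker Mki67 stood at 9.67, 9.55 and 9.43 FPKM in VHH-OD-PD-1-Fc, against 22.6, 20.6 and 17.1 FPKM in VHH-OD-Fc (log2 -0.99, adjusted p = 0.0072, and 0.12 as 1 sample). Ccne1, or cyclin E1, stood at 5.51, 5.54 and 4.83 FPKM in VHH-OD-PD-1-Fc and 2.99, 3.1 and 2.94 FPKM in VHH-OD-Fc. Tyms, the enzyme of thymidylate synthesis, rose by 0.60. The S phase median of 0.19 turned to -0.03 on the TPM scale.

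Counts of the stress and signalling lists stand beside 15.6% higher and 25.6% lower among all genes. Of 19 heat shock chaperones 7 fell and 2 rose (2 and 0 as 1 sample), and the inducible Hspa1a stood at 1.31, 1.45 and 1.17 FPKM in VHH-OD-PD-1-Fc, against 5.63, 11 and 6.02 FPKM in VHH-OD-Fc. Of 26 AP-1 and immediate early genes 6 fell and 1 rose, and 3 to 4 fell with 1 library left out (0 and 1 as 1 sample). Of 19 p53 targets 6 fell and 3 rose, and 2 to 5 fell with 1 library left out (0 in either direction as 1 sample), and Mdm2, the ubiquitin ligase of p53, fell by 0.78. Of 16 MAPK feedback genes 3 rose and 2 fell, and Dusp5, a phosphatase of ERK, stood at 50.7, 52.2 and 49.7 FPKM in VHH-OD-PD-1-Fc and 23.8, 22.4 and 25.1 FPKM in VHH-OD-Fc. Of 26 glycolysis and HIF-1 targets 5 fell and 2 rose, or 1 to 3 and 1 to 2 with 1 library left out and 0 in either direction as 1 sample, and Pfkfb3, which raises the rate of glycolysis, stood at 3.26, 3.47 and 3.27 FPKM in VHH-OD-PD-1-Fc against 6.12, 9.1 and 8.05 FPKM in VHH-OD-Fc. Of 24 genes of the unfolded protein and integrated stress response 2 rose and 2 fell (1 and 0 as 1 sample). Of 23 cholesterol synthesis genes 5 rose and 1 fell (0 and 1 as 1 sample). Digoxin binds the sodium pump, and of 8 genes of Na,K-ATPase subunits and their FXYD regulators 1 was called, Fxyd5, at 131, 128 and 134 FPKM in VHH-OD-PD-1-Fc and 84.4, 91.5 and 89.8 FPKM in VHH-OD-Fc. The pump subunit Atp1b1 stood at 1.3, 1.4 and 1.19 FPKM in VHH-OD-PD-1-Fc and 1.62, 3.44 and 3.34 FPKM in VHH-OD-Fc (adjusted p = 0.30).

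Long RNAs that stay in the nucleus were lower in VHH-OD-PD-1-Fc, with 6 of 8 lower and 0 higher (median -0.69, and 4 lower as 1 sample). Malat1, a nuclear speckle RNA, stood at 10.9, 10.9 and 11.1 FPKM in VHH-OD-PD-1-Fc, against 49.1, 39.5 and 43.6 FPKM in VHH-OD-Fc (log2 -1.91, SE 0.18, adjusted p = 5.7e-05). Neat1, the scaffold of paraspeckles, stood at 19.7, 18.7 and 19.4 FPKM in VHH-OD-PD-1-Fc, against 71.3, 61.6 and 62.7 FPKM in VHH-OD-Fc. Of 24 splicing and RNA processing genes 14 fell and 0 rose (median -0.47, and 7 lower as 1 sample). Luc7l2, a splice site selection factor, stood at 4.24, 4.49 and 3.96 FPKM in VHH-OD-PD-1-Fc, against 13.1, 13.1 and 13 FPKM in VHH-OD-Fc. Ddx5, an RNA helicase, and Clk4, a kinase of splicing factors, fell by 1.22 and 1.10. The groups did not overlap for any of these 5 genes, as for 5430 of the 5446 called genes.

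VHH-PD-1-Fc against Ctrl gives the effect of the same arm without the OD arm, and this comparison shares no library with VHH-OD-PD-1-Fc against VHH-OD-Fc. Over the same genes, VHH-PD-1-Fc was higher than Ctrl in 1934 (14.6%) and lower in 4441 (33.6%), with a median of -0.20. Of the 2060 genes that rose with both arms, 1385 (67.2%, and 71.6% of the 1934) also rose with the PD-1 arm alone. Of the 3386 that fell, 2689 (79.4%, and 60.5% of the 4441) also fell, and 28 genes were called in opposite directions. Across genes, Spearman's rho of the fold changes was 0.78 and Pearson's r 0.80. Genes are not independent replicates, and anything that set VHH-OD-PD-1-Fc and VHH-PD-1-Fc libraries apart from the others would enter both effects. The sum of FPKM was 388142 to 401179 in VHH-PD-1-Fc and 330507 to 337816 in Ctrl, a gap like that between VHH-OD-PD-1-Fc and VHH-OD-Fc. Spearman's rho of transcript length with fold change was -0.251 for VHH-PD-1-Fc against Ctrl and -0.273 for VHH-OD-PD-1-Fc against VHH-OD-Fc. The part of these in the shared fold changes was not tested. The ribosomal list had a median of 0.65 with both arms and 0.88 with the PD-1 arm alone, the collagens -0.84 and -1.06, and Rpl39 log2 fold changes of 1.54 and 1.73. Doses in mg/kg differed between the constructs.

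The difference between these effects was tested in the same fit, as VHH-OD-PD-1-Fc minus VHH-OD-Fc, less VHH-PD-1-Fc minus Ctrl. It was called for 17 genes (0.128%), 14 with a more positive and 3 with a more negative effect when the OD arm was present, and 1660 genes had an unadjusted p under 0.05. The count was 3 as 1 sample (Gm15850, Kif21b and Atmin) and 5 to 103 with 1 library left out. Of the 17 genes, Gm15850, Gm7694, Gm38317, Xlr3c, Ifi44, Cxcl9, Oas1a, Xaf1 and Tmem97 fall outside the rule for named genes and were named after their values were seen. Gm15850, annotated as a processed transcript without coding sequence, stood at 24.7, 22.7 and 23.1 FPKM in VHH-OD-PD-1-Fc and at 0, 0.115 and 0.0555 FPKM in VHH-OD-Fc. Its level was 0.0185, 0 and 0.00818 FPKM in VHH-PD-1-Fc, and 0, 0.0249 and 0.0924 FPKM in Ctrl, so it was close to absent outside the VHH-OD-PD-1-Fc group (difference 4.58 on the log2 scale, SE 0.14, adjusted p = 2.1e-08). Gm15850 passed the filter through the VHH-OD-PD-1-Fc libraries alone. In GENCODE M21 it lies on chromosome 1, head to head with Kif21b on the opposite strand, with a gap of 206 bases. The level of Kif21b was 0.77, 0.693 and 0.637 FPKM in VHH-PD-1-Fc and 2.36, 1.82 and 2.3 FPKM in Ctrl, against the 7.99 to 8.56 FPKM with both arms (difference 2.66, SE 0.14, adjusted p = 5.7e-06). The use of strand in counting is not given in the sources used here, so reads of overlapping transcripts cannot be told apart. The next tested genes on either side, Tmem9 and Inava, were not called between VHH-OD-PD-1-Fc and VHH-OD-Fc (0.07 and -0.20).

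Atmin, a zinc finger factor of the ATM pathway and of ciliogenesis, stood at 20.4, 21.1 and 21.4 FPKM in VHH-OD-PD-1-Fc and at 5.74, 5.81 and 6.04 FPKM in VHH-OD-Fc. Levels were 6.4, 6.62 and 6.35 FPKM in VHH-PD-1-Fc and 6.15, 6.17 and 6.08 FPKM in Ctrl. The 9 libraries of the 3 other groups thus lay within a narrow band and the VHH-OD-PD-1-Fc libraries far above it (difference 1.61, SE 0.10, adjusted p = 2.1e-05). Its neighbour Cenpn, 1886 bases away, did not pass the test between VHH-OD-PD-1-Fc and VHH-OD-Fc (0.30, adjusted p = 0.091). Gcsh, the next tested gene on the other side, 21365 bases away, was called higher there (0.79, adjusted p = 8.4e-05). The difference was called for neither neighbour (adjusted p = 0.33 for each). Cldn6 had 3.79, 6.34 and 1.46 FPKM in VHH-PD-1-Fc and 0.61, 1.52 and 1.36 FPKM in Ctrl, with a difference of 3.43 (SE 0.50, adjusted p = 0.027). Apol11b and Xlr3c were near 0 outside the VHH-OD-PD-1-Fc group, where they stood at 1.66 to 2.03 and 1.77 to 2.9 FPKM. Both passed the filter through that group alone. Gm15850, Kif21b and Atmin were called in all 23 settings tried, and Cldn6 in 11 of 23. Of the interferon-inducible genes described next, Cmpk2 was called in 16 of 23 settings, Ifi44 in 20, Cxcl9 in 21, and Oas1a and Xaf1 in 8 each, and none of these 5 as 1 sample.

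Of the genes with a more negative effect, Itgb5, an integrin subunit that binds vitronectin, stood at 82.9, 83.6 and 84.8 FPKM in VHH-OD-PD-1-Fc and at 145, 120 and 124 FPKM in VHH-OD-Fc. Levels were 172, 167 and 162 FPKM in VHH-PD-1-Fc and 112, 133 and 113 FPKM in Ctrl, so the PD-1 arm went with less Itgb5 beside the OD arm and with more without it (difference -1.10, SE 0.14, adjusted p = 0.0094).

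Interferon-inducible genes made up another part of the called differences (Cmpk2, Ifi44, Oas1a, Xaf1 and Cxcl9). Cmpk2, a mitochondrial nucleotide kinase with antiviral action, stood at 4.72, 4.79 and 5.32 FPKM in VHH-OD-PD-1-Fc and at 5.91, 5.64 and 4.5 FPKM in VHH-OD-Fc, and these libraries overlapped. Levels were 1.9, 1.34 and 1.19 FPKM in VHH-PD-1-Fc and 12.2, 6.67 and 8.0 FPKM in Ctrl, without overlap (difference 1.89, SE 0.26, adjusted p = 0.019). Ifi44 stood at 12.2, 12.9 and 12.4 FPKM in VHH-OD-PD-1-Fc and 14.8, 11.8 and 12.5 FPKM in VHH-OD-Fc, with 6.04, 6.93 and 6.93 FPKM in VHH-PD-1-Fc and 24.5, 19.1 and 17.6 FPKM in Ctrl. Its difference was 1.42. Cxcl9, a T cell chemokine induced by interferon gamma, stood at 24.1, 23.1 and 24.1 FPKM in VHH-OD-PD-1-Fc and 18.5, 23.5 and 18.2 FPKM in VHH-OD-Fc, with 15, 16.4 and 18.3 FPKM in VHH-PD-1-Fc and 38.2, 34.2 and 34.6 FPKM in Ctrl (difference 1.31, SE 0.16, adjusted p = 0.0094). Oas1a, which makes the activator of RNase L, stood at 29.8, 30.7 and 29.2 FPKM in VHH-OD-PD-1-Fc and 26.0, 21.3 and 20 FPKM in VHH-OD-Fc, with 15.4, 19 and 14.9 FPKM in VHH-PD-1-Fc and 25.2, 25.1 and 27.4 FPKM in Ctrl. For each of these genes VHH-PD-1-Fc held the lowest values, apart from an overlap with VHH-OD-Fc for Cxcl9, and VHH-OD-PD-1-Fc stood near or above VHH-OD-Fc.

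The lists that hold these genes are set side by side here. The type I interferon effectors had a median of -0.13 with both arms, with 5 of 34 lower, and of -1.12 with the PD-1 arm alone, with 31 lower. The difference was positive for all 34, with a median of 1.02, and was called for 4. The difference was positive for 59.8% of all tested genes, with a median of 0.07. It was also positive for each of the 29 S phase genes (median 0.50), the 21 MHC class I genes (0.36) and the 13 neutrophil chemokine genes (0.87). The interferon gamma targets had medians of -0.39 and -1.29, with 9 and 24 of 27 lower, a positive difference for all 27 and a call for 1. Members of a list share regulators and libraries and are not separate evidence. The immediate early gene Jun, a subunit of AP-1, stood at 59.2, 56.9 and 55.9 FPKM in VHH-OD-PD-1-Fc, 97.0, 108 and 83.8 FPKM in VHH-OD-Fc, 22.6, 17.7 and 20.7 FPKM in VHH-PD-1-Fc and 84.4, 109 and 78.4 FPKM in Ctrl (difference 1.36, SE 0.19, adjusted p = 0.023).

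**Figure D4:**
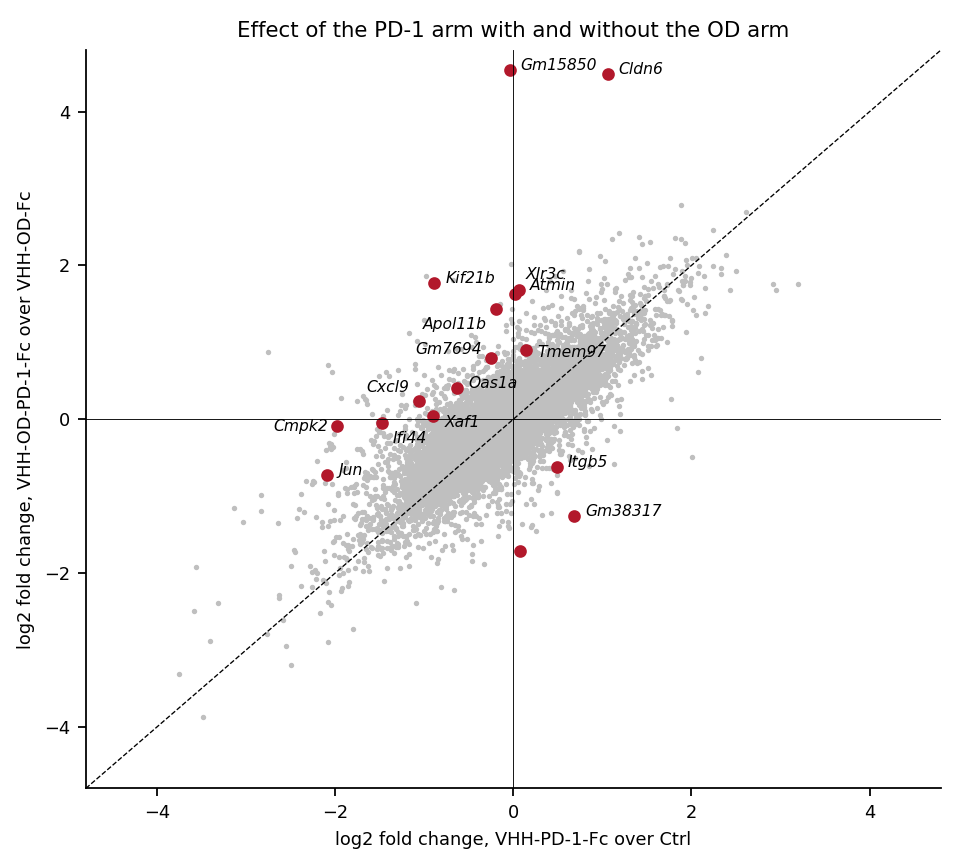
Log2 fold change of each tested gene for VHH-OD-PD-1-Fc over VHH-OD-Fc (vertical axis) and VHH-PD-1-Fc over Ctrl (horizontal axis), with the 17 genes called for the difference in red, labelled where they are reported, and a dashed line where both effects are equal. Most genes follow the line, while Gm15850 and Cldn6 lie far above it at 4.54 and 4.49 on the vertical axis.

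**Figure D5:**
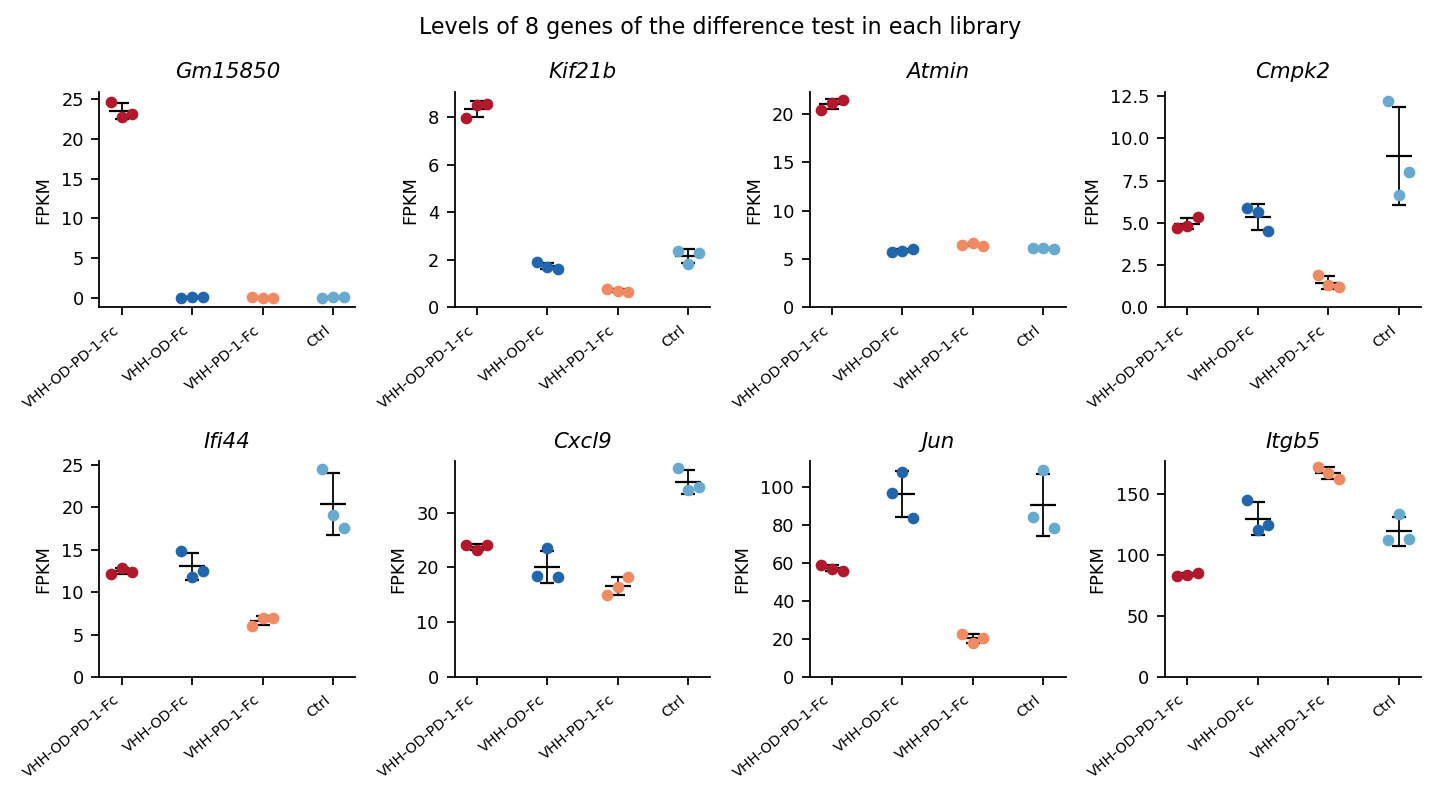
Level in FPKM (linear axis from 0) of 8 genes called for the difference, in each library of the 4 groups, with the mean as a bar and the SD as error bars (n = 3). Gm15850, Kif21b and Atmin are high in VHH-OD-PD-1-Fc libraries, Cmpk2, Ifi44, Cxcl9 and Jun are low in VHH-PD-1-Fc libraries, and Itgb5 is lowest in VHH-OD-PD-1-Fc and highest in VHH-PD-1-Fc libraries.

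Interferon acts on such genes through a promoter sequence, the interferon-stimulated response element. The 250 bases before the start of 3 of the called genes are shown because their levels differ in this way, read 5′ to 3′ along each gene from RefSeq (GRCm38.p6), with capitals for matches to GAAANNGAAA, searched on both strands.
Oas1a: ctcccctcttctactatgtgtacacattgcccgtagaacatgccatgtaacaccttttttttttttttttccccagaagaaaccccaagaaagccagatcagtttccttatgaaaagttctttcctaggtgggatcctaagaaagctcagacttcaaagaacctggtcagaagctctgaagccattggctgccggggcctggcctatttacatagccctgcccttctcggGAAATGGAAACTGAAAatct
Cmpk2: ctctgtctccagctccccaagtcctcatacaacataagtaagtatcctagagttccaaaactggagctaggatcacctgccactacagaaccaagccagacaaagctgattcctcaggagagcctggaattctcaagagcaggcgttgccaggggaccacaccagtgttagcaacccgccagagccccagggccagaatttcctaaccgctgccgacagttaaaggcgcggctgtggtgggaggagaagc
Xaf1: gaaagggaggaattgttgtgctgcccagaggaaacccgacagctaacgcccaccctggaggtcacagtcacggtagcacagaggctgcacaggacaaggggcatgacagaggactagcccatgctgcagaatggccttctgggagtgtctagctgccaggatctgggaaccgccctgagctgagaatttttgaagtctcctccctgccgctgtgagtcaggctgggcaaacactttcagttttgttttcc
The Oas1a sequence (chr5:120907526-120907775, minus strand) holds a pair of overlapping matches, whose first bases lie 20 and 14 bases before the start. The stretches of Cmpk2 (chr12:26468965-26469214, plus strand) and Xaf1 (chr11:72301379-72301628, plus strand) hold none, which says only that these letters are not in these windows. The motif occurred in 3.0% of all 32851 promoters in the table (978) and in 48.1% of the 27 promoters of the type I interferon list (13). A wider form, AAANNGAAA, was tried only after these sequences had been read, and occurred in 9.4% of all promoters and 66.7% of those of the list. The Xaf1 stretch holds this wider form on the opposite strand, near the start of the gene. A match is a description of the sequence and does not show that a factor was bound.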

How the data were processed

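Poly(A) RNA-seq of 12 tumour libraries in 4 groups was used, grouped by the sample labels. The authors deposited 1 table of FPKM values with 41009 gene symbols. Per the submitters' processing notes the tools include HISAT2 2.2.1 and fastp 0.22.0, and the genome named there is the human GRCh38, although the symbols are mouse. How FPKM was computed, with which annotation, strand setting and filter, is "not given in the sources used here". Symbols were matched to GENCODE M21 (36319, 88.6%) only for class, length, GC content and neighbours.

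Values were tested as log2(FPKM + 1), without further scaling, with limma 3.58.1 in R 4.3.3 (two-sided, trend of variance on mean, Benjamini-Hochberg over 13236 genes), 1 mean per group. The pseudocount of 1 understates the change of low genes. Reads were estimated from low values as whole steps (95.1% to 96.3% within 0.05 of a whole number in the 6 libraries compared). Named genes were the 10 largest called rises and falls without overlap, up to 4 called members per list, 9 genes always given, and up to 5 differences per direction. The genes, the 59 lists and this rule were chosen with earlier results of these data known. Some genes that the rule selects are not reported here. The fit was tested on simulated data with the same SD per gene in all groups, so that test does not cover the unequal spread of the real groups. Alternatives varied scaling, pseudocount, filter, length and GC trends, weights, the block and left-out libraries.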

Additional observations from a re-analysis of the deposited data

Results flagged for a closer look

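The test of the difference between the effect of the PD-1 arm with the OD arm and its effect without it called 17 genes, and those reported are given here as the difference in log2 fold change because that test passed. The effect was more positive with the OD arm for Gm15850 (4.58), Cldn6 (3.43), Kif21b (2.66), Cmpk2 (1.89), Apol11b (1.63), Atmin (1.61), Xlr3c (1.61), Ifi44 (1.42), Jun (1.36), Cxcl9 (1.31), Gm7694 (1.04), Oas1a (1.04), Xaf1 (0.95) and Tmem97 (0.75). It was more negative for Itgb5 (-1.10) and Gm38317 (-1.94). Gm15850, Apol11b, Xlr3c and Gm7694 passed the filter through the VHH-OD-PD-1-Fc libraries alone.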

How the results depend on the processing

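Averaging the VHH-OD-PD-1-Fc libraries into 1 sample left 1240 called genes, 527 higher and 713 lower, and the difference test called 3. Library quality weights gave 8287 calls (3196 and 5091) and 40 differences. A mean of at least 5 FPKM gave 3176 calls, 1739 of them lower, no filter 4317 higher, and TPM 1211 higher and 5423 lower. Removing length and GC trends left 2239 lower. A pseudocount of 0.1 gave 10 differences. Leaving out the 3 libraries that stand apart together (Ctrl 1, VHH-OD-Fc 2 and VHH-PD-1-Fc 2), a setting chosen after seeing the data, gave 70. Leaving out 1 library in turn gave 4038 to 6249 calls, 1564 to 2376 higher and 2474 to 3873 lower, and 5 to 103 differences. The difference test gave 7, 6 and 5 calls without VHH-OD-PD-1-Fc replicates 1, 2 and 3, 9 without VHH-OD-Fc replicate 3, and 92, 91 and 103 without VHH-PD-1-Fc replicates 1, 2 and 3. The cause was not tested. Of the 177 named genes that were called, 78 stayed called with VHH-OD-PD-1-Fc as 1 sample.

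Among lists whose median and shift both exceeded the SD of that median between libraries, the sign changed as follows. With length and GC trends removed it changed for type I interferon effectors (0.0298), G2 and M phase (0.0329) and cholesterol synthesis (0.0162). After quantile normalization it changed for MHC class II (-0.012) and translation factors (-0.0387). On the TPM scale it changed for translation factors (-0.124), the proteasome (-0.115), S phase (-0.0291) and NRF2 targets (-0.064). Without a filter it changed for ROR and type 17 genes (0.000923). Other list medians also changed sign, among them MAPK feedback genes (0.05 to -0.17) and macrophage and C1q genes (0.12 to -0.09) on the TPM scale.

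The labels number the libraries of each group. Deviations of same-numbered libraries of VHH-OD-PD-1-Fc and VHH-OD-Fc from their group means had correlations of -0.013 to 0.013. The spread among VHH-OD-PD-1-Fc libraries may be technical, so this cannot show whether the numbers pair libraries. A replicate block gave 5241 calls, 1973 higher and 3268 lower.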
